A study of Rattus norvegicus with 20 samples.

Results

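The expression of 9 interferon response genes was followed in rat pancreatic islets after adenovirus: Mx1, Mx2, Oas1a, Irf1, Irf7, Stat2, Isg15, Psmb8 and Psmb9. They are the listed interferon response genes among 14217 genes measured, each read by its brightest probe set, and all 9 had values on every array. Islets came from male Wistar rats aged 8 weeks and were kept in medium with 8 mM glucose. The groups were islets given adenovirus carrying Nr4a1, islets given adenovirus carrying Nr4a3, islets given adenovirus carrying green fluorescent protein (GFP), and untreated islets, with 5 arrays in each and 20 in all. Both delivered receptors are transcription factors of the nuclear receptor class with no known hormone ligand, and GFP has no role in islet cells. Virus was present for 18 h and islets were collected at 48 h. The sources used here do not give the promoter that drives each transgene, the share of cells infected or the animals behind each array. The labels call the arrays of a group biological replicates, and p-values measure the spread between them.

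Type I interferons bind their receptor on the cell surface and activate kinases that phosphorylate STAT2, which joins IRF9 in a complex that binds interferon-stimulated response elements. Interferon gamma acts through its own receptor and on gamma-activated sites. The induced genes include transcription factors that amplify the response, antiviral effectors, the ubiquitin-like protein ISG15, inhibitors that end the response, and proteasome subunits that serve antigen presentation. Adenovirus is used to carry genes into islets, and viral nucleic acid can set off this pathway through cellular sensors.

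The labels disagree about the viruses: titles, characteristics and design text name the 3 viruses above, but the protocol for treatment gives a β-galactosidase and an Nkx6.1 virus, and groups follow the titles here. The probe sets for the delivered genes do not check the labels. Nr4a1 averaged 5.99, 6.09, 6.07 and 6.05 on the log2 scale in the Nr4a1, Nr4a3, GFP and untreated arrays, and Nr4a3 averaged 6.07, 5.82, 5.63 and 5.83. Their position against the delivered sequence is unknown here. A single array, Nr4a3 replicate 2, stood apart: its mean correlation with the other arrays was 0.941, against 0.982 to 0.989 for the other 19, and its 3′ minus 5′ difference for beta-actin control probe sets was 4.62, against 1.497 to 2.21. Results that rest on it are given with and without it. Beta cell markers were bright on average, with the mean of 7 of them at 12.20 to 13.01 over all arrays.

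The promoters of these genes are shown because the pathway acts through short motifs in them. RefSeq promoter windows (GRCr8, 250 bases before to 50 after the start) were matched by gene for 7 of the 9 genes. Mx2 and Isg15 had no window here and were not searched. The motifs searched on both strands were the interferon-stimulated response element core (GAAA, any 2 bases, GAAA), the gamma-activated site (TTC, any 3 bases, GAA) and the kappa B site (GGG, any 5 bases, CC). Of 33469 rat promoters in the table, 3.92% held the first, 8.87% the second and 47.3% the third. Irf7, Oas1a and Psmb8 held the response element core, Irf1, Oas1a and Psmb8 the gamma-activated site, and Mx1, Irf1, Irf7, Stat2 and Psmb9 the kappa B site. Irf7 is shown first, as the gene with the lowest p against GFP, with the response element match in capitals at positions -69 to -60 from the start (chr1:205799974-205800273, minus strand). Irf1 follows with its gamma-activated site match in capitals at -142 to -134 (chr10:38417685-38417984, plus strand). Shorter stretches show the response element matches, in capitals, of Oas1a (chr12:41330406-41330465, plus strand, where matches at -41 to -32 and -35 to -26 overlap) and Psmb8 (chr20:4657007-4657066, minus strand, -4 to 6). Those of Ifi44l (chr2:243328623-243328682, plus strand, -91 to -82 and -59 to -50) and Parp12 (chr4:68850532-68850591, minus strand, -18 to -9), interferon-stimulated genes described further on, are given beside them. Ifngr1, also described further on, held a kappa B match alone (-78 to -69), and Usp18 had no window here. A match is a description of letters in these windows and not a bound site.
Irf7: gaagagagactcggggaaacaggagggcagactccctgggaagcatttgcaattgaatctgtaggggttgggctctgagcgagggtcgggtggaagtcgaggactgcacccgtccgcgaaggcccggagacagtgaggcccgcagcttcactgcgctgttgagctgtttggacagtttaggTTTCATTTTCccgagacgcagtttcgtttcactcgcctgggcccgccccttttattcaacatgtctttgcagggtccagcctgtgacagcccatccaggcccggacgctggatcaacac
Irf1: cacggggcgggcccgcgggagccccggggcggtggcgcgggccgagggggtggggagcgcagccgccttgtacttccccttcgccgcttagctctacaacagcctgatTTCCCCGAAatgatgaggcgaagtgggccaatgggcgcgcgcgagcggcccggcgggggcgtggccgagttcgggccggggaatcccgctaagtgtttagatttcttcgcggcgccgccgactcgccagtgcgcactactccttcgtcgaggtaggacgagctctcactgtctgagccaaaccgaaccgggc
Oas1a: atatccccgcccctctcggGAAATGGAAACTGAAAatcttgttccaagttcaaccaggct
Psmb8: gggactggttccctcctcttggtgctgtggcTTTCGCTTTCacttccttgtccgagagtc
Ifi44l: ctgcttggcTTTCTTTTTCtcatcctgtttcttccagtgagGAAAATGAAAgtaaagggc
Parp12: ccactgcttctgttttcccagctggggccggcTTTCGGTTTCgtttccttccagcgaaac

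None of the 9 genes passed the test against untreated islets in any virus group. In the Nr4a1 arrays 0 of 9 were called at an adjusted p under 0.05 (limma, Benjamini-Hochberg over all genes), where 7.94% of all genes were called. In the Nr4a3 arrays 0 of 9 were called against 1.5% of all genes, and in the GFP arrays 0 of 9 against 0% of all genes. The mean of the 3 virus groups also called 0 of 9, where 1.19% of all genes were called. At an unadjusted p under 0.05 the Nr4a1 comparison held 1 of the 9, Irf7 (20.8% of all genes), and the Nr4a3 comparison (14%), the GFP comparison (2.9%, or 412 genes) and the mean of 3 viruses (13.1%) held 0. Every one of the 9 overlapped between each virus group and the untreated arrays, where 11.2% of all genes did not overlap for Nr4a1, 2.76% for Nr4a3 and 0.605% for GFP. The 3 comparisons share the 5 untreated arrays.

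The median log2 difference of the 9 genes from untreated islets was 0.20 in the Nr4a1 arrays, 0.02 in the Nr4a3 arrays and -0.04 in the GFP arrays, beside -0.03, -0.02 and -0.02 over all genes. Without Nr4a3 replicate 2 the Nr4a3 median of the 9 was 0.09. Intervals show what size these arrays leave possible. With 95% confidence, the highest upper bound was 1.75-fold for Isg15 in the Nr4a1 arrays, 1.77-fold for Mx1 in the Nr4a3 arrays and 1.66-fold for Psmb9 in the GFP arrays. The lowest lower bound was 0.706-fold for Psmb9 in the Nr4a1 arrays, 0.664-fold for Psmb9 in the Nr4a3 arrays and 0.564-fold for Mx2 in the GFP arrays. The Nr4a3 bounds include replicate 2. Without it the Nr4a3 log2 difference was -0.06 for Mx1, in place of 0.27, and 0.17 for Psmb9, in place of -0.09. For the mean of 3 viruses the bounds ran from 0.769-fold (Mx2) to 1.43-fold (Mx1). Without Nr4a3 replicate 2 that log2 difference was -0.04 for Mx1, in place of 0.07, and -0.04 for Mx2, in place of 0.02. A p that misses the threshold does not show that levels were equal.

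**Figure D1:**
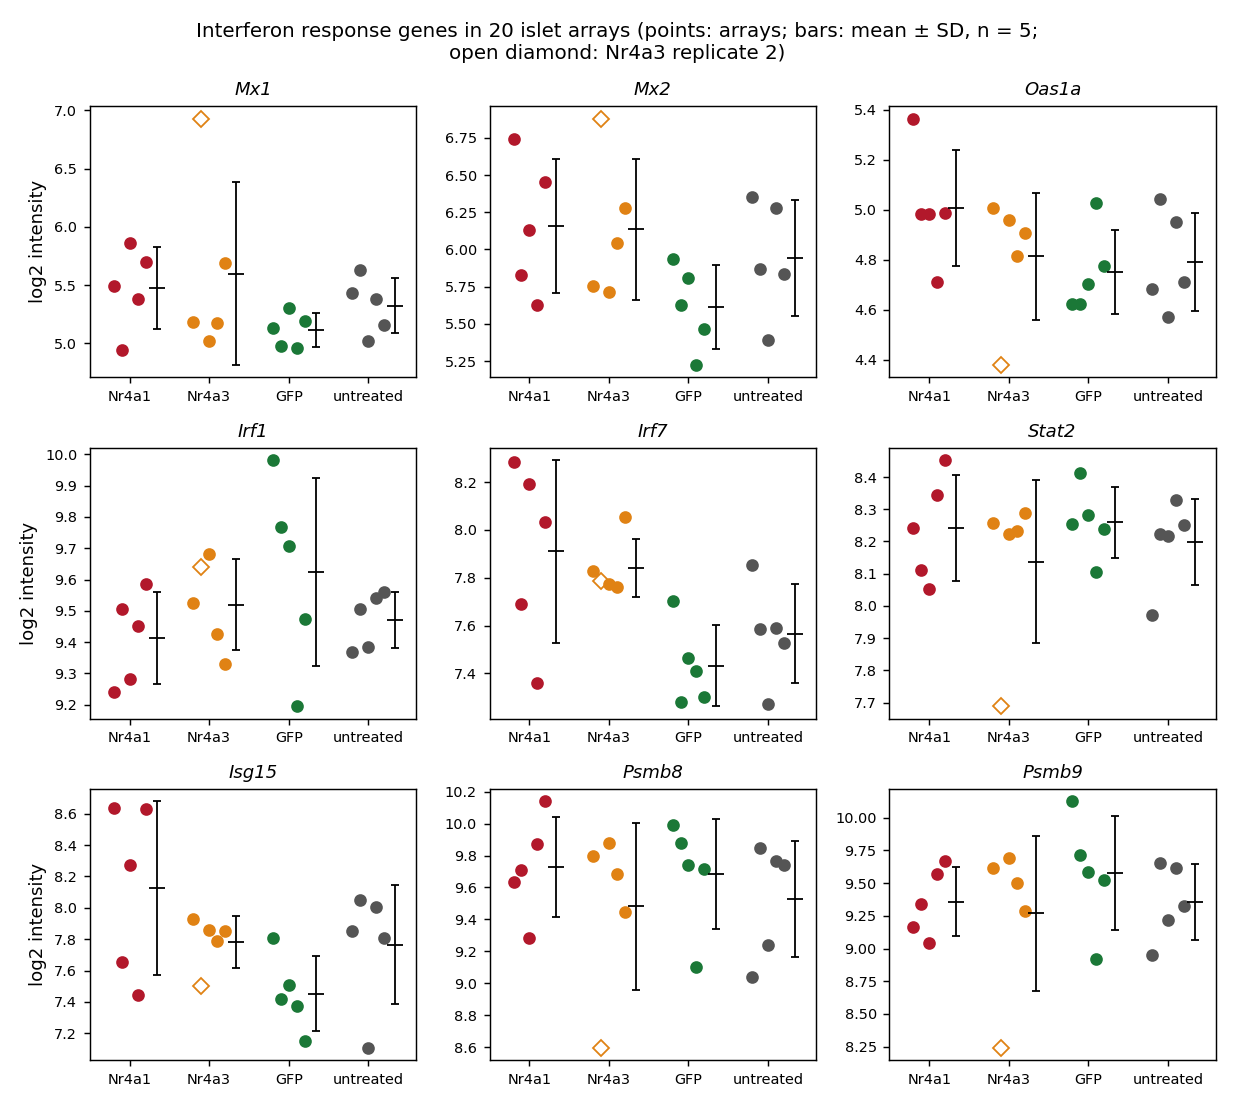
Log2 intensity of the 9 interferon response genes, 1 point per array, with Nr4a1, Nr4a3, GFP and untreated arrays from left to right and bars for mean ± SD (n = 5). Virus and untreated arrays overlap in every panel, all Nr4a3 arrays lie above all GFP arrays for Irf7, and the open diamond, Nr4a3 replicate 2, lies at 6.93 for Mx1 and at 8.24 for Psmb9.

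**Figure D2:**
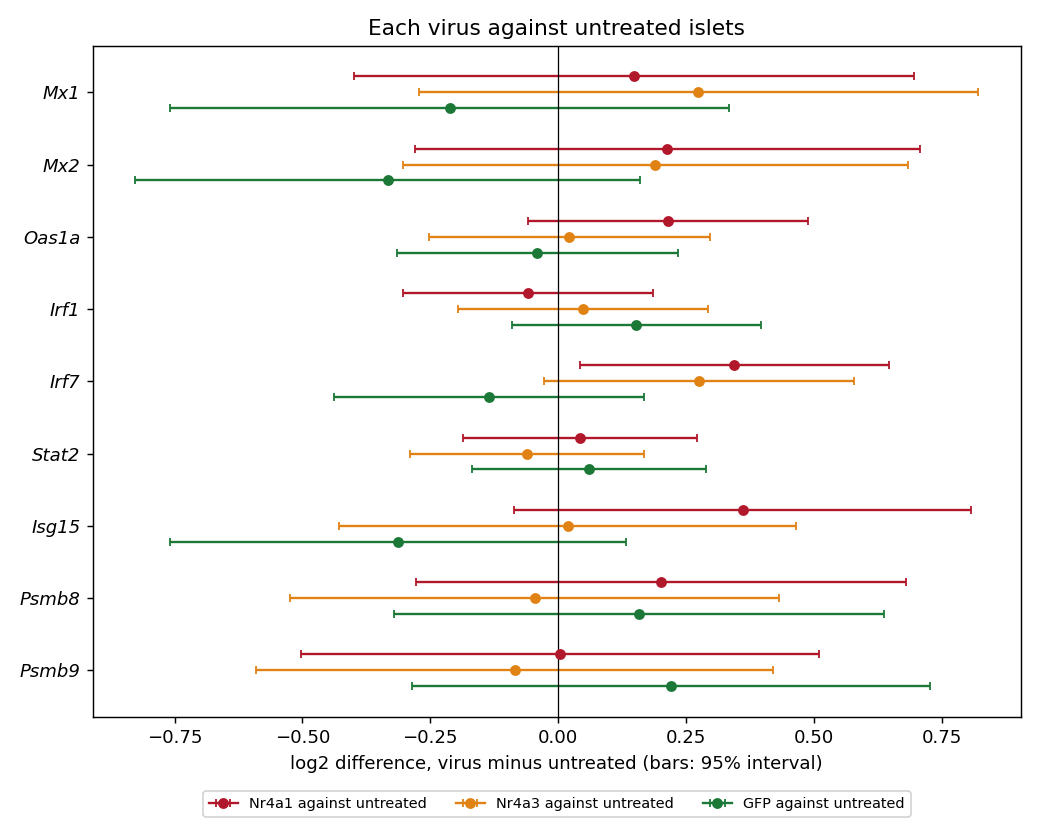
Log2 difference of each virus group from untreated islets for the 9 genes, with 95% intervals from limma. Irf7 in the Nr4a1 arrays has the only interval above 0, from 0.04 to 0.65, and it did not pass the test after adjustment.

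The transcription factors come first. Irf7, which amplifies type I interferon production and is itself interferon-induced, measured 8.28, 7.69, 8.19, 7.36 and 8.03 in the Nr4a1 arrays, 7.83, 7.79, 7.78, 7.76 and 8.05 in the Nr4a3 arrays, 7.70, 7.28, 7.46, 7.41 and 7.30 in the GFP arrays, and 7.85, 7.59, 7.27, 7.59 and 7.53 in the untreated arrays (log2 intensity, replicates 1 to 5). The Nr4a1 arrays spread widely, with replicates 2 and 4 in the GFP range, and the Nr4a3 arrays lay close together and above every GFP array. Against untreated islets the difference was 0.34 ± 0.14 in Nr4a1 arrays (log2, SE, limma adjusted p = 0.168) and 0.28 ± 0.14 in Nr4a3 arrays (0.415). The GFP arrays differed by -0.13 ± 0.14 (adjusted p = 0.9997, limma). Leaving out Nr4a1 replicate 4 made the Nr4a1 difference 0.48 with an adjusted p of 0.0272 (limma).

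Stat2, the signal transducer that carries type I interferon signals to the nucleus, averaged 8.24 ± 0.16, 8.14 ± 0.25, 8.26 ± 0.11 and 8.20 ± 0.13 in the Nr4a1, Nr4a3, GFP and untreated arrays (log2 intensity, SD, n = 5 each). Nr4a3 replicate 2 held the low value, 7.69, where the other arrays lay between 7.97 and 8.45. Irf1, an interferon gamma-responsive transcription factor, averaged 9.41 ± 0.15, 9.52 ± 0.15, 9.62 ± 0.30 and 9.47 ± 0.09 in the same order. Its GFP arrays spanned 9.19 to 9.98, wider than the untreated arrays at 9.37 to 9.56. A dimmer Stat2 probe set differed from untreated by -0.12, 0.10 and -0.02 in the Nr4a1, Nr4a3 and GFP arrays, and was not called in a fit of all 20826 probe sets with 1 symbol.

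Among the antiviral effectors, Mx1, Mx2 and Oas1a lay below the 25th percentile of gene means (6.07, log2 intensity), so these probe sets were dim and the other 6 genes lay above it. Mx1 and Mx2 encode interferon-induced GTPases that block virus replication, and Oas1a makes the oligoadenylates that activate RNase L. Mx1 averaged 5.47 ± 0.35 in Nr4a1 arrays, 5.60 ± 0.79 in Nr4a3 arrays, 5.11 ± 0.14 in GFP arrays and 5.33 ± 0.24 in untreated arrays. The Nr4a3 mean rested on replicate 2 at 6.93, beside 5.02 to 5.69 in the other 4 Nr4a3 arrays. Without it the difference from untreated was -0.06 in place of 0.27.

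Mx2 measured 6.75, 5.83, 6.13, 5.63 and 6.45 in the Nr4a1 arrays, 5.76, 6.88, 5.71, 6.04 and 6.28 in the Nr4a3 arrays, 5.93, 5.63, 5.81, 5.22 and 5.46 in the GFP arrays, and 6.35, 5.87, 5.39, 6.28 and 5.84 in the untreated arrays. Every group overlapped the untreated one, and without Nr4a3 replicate 2 the Nr4a3 difference from untreated was 0.00 in place of 0.19. A dimmer Mx2 probe set differed from untreated by 0.19, 0.03 and -0.07 in the Nr4a1, Nr4a3 and GFP arrays, and was not called. Oas1a averaged 5.01 ± 0.23, 4.81 ± 0.25, 4.75 ± 0.17 and 4.79 ± 0.20 in the Nr4a1, Nr4a3, GFP and untreated arrays.

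Isg15, the ubiquitin-like modifier that is attached to proteins during the response, measured 8.64, 7.65, 8.27, 7.44 and 8.63 in the Nr4a1 arrays, 7.93, 7.50, 7.86, 7.79 and 7.85 in the Nr4a3 arrays, 7.81, 7.42, 7.51, 7.38 and 7.15 in the GFP arrays, and 7.85, 8.05, 7.11, 8.01 and 7.81 in the untreated arrays. Nr4a1 replicates 1, 3 and 5 lay above every array of the other groups, and Nr4a1 replicates 2 and 4 lay among them. From untreated islets the Nr4a1 arrays differed by 0.36 ± 0.21, the Nr4a3 arrays by 0.02 ± 0.21 and the GFP arrays by -0.31 ± 0.21 (log2, SE).

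Psmb8 and Psmb9 are catalytic subunits of the immunoproteasome, the proteasome form that cuts peptides for MHC class I. Psmb8 averaged 9.73 ± 0.31, 9.48 ± 0.52, 9.69 ± 0.34 and 9.53 ± 0.36 in the Nr4a1, Nr4a3, GFP and untreated arrays. Psmb9 averaged 9.36 ± 0.26, 9.27 ± 0.59, 9.57 ± 0.44 and 9.35 ± 0.29 in the same order. Nr4a3 replicate 2 was the lowest array for both, at 8.60 and 8.24. Without it the Nr4a3 differences from untreated became 0.17 and 0.17, where they were -0.05 and -0.09 with it.

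The receptor viruses were also set against the GFP virus. In the Nr4a1 arrays 1 of the 9 genes was called against GFP, where 8.71% of all genes were called. In the Nr4a3 arrays 0 of 9 were called, where 1.93% of all genes were called. The called gene was Irf7, higher in the Nr4a1 arrays by 0.48 ± 0.14 (log2, SE), or 1.39-fold (95% interval 1.13 to 1.72), with a limma adjusted p of 0.0434. The call ended without Nr4a1 replicate 1, 3 or 5, Nr4a3 replicate 1, 3 or 4, GFP replicate 2, 3, 4 or 5, or untreated replicate 2, 4 or 5, with limma adjusted p from 0.0510 to 0.151. It also ended when only the 10 arrays compared were fitted (0.0549) and when all probe sets were tested (0.0516).

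Isg15 was higher in the Nr4a1 arrays than in the GFP arrays by 0.67 ± 0.21, or 1.60-fold (1.17 to 2.17), with a limma adjusted p of 0.0557, and was not called. Without Nr4a3 replicate 2, an array that affects only the common variance here, it was 0.0303, and 2 of the 9 were called against GFP, Irf7 and Isg15, where 19.1% of all genes were called in that fit. Isg15 also passed without Nr4a1 replicate 2 or 4 or untreated replicate 3. Mx2 differed by 0.55 ± 0.24 in Nr4a1 arrays and 0.52 ± 0.24 in Nr4a3 arrays against GFP (limma adjusted p = 0.190 and 0.356). The Nr4a3 difference for Mx2 was 0.34 without replicate 2 (limma adjusted p = 0.505). In the Nr4a3 arrays Irf7 was 0.41 ± 0.14 above GFP (adjusted p = 0.194, limma) with all 5 Nr4a3 arrays above all 5 GFP arrays. It was the only one of the 9 whose groups did not overlap in that comparison, where 4.63% of all genes did not. Between Nr4a1 and GFP arrays all 9 overlapped, where 16.2% of all genes did not.

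Markers of other cells moved with the Nr4a1 comparisons, and fewer cells of a type and less RNA per cell cannot be told apart in such samples. Of 9 acinar markers, 9 rose in the Nr4a1 arrays against GFP (8.71% of all genes called) and 6 against untreated (7.94%). Their mean lay at 10.55 to 11.91, 9.45 to 10.36, 7.20 to 9.91 and 7.45 to 10.97 in the Nr4a1, Nr4a3, GFP and untreated arrays (log2). Of 9 endothelial markers, 5 fell in Nr4a1 (8.71% of all genes called) and 2 in Nr4a3 arrays (1.93%) against GFP. Against untreated 8 (7.94%) and 5 (1.5%) fell. The endothelial mean lay at 6.73 to 7.24, 6.96 to 7.23, 7.31 to 7.90 and 7.57 to 8.16 in the same order. Of 19 macrophage and leukocyte markers none passed in any comparison, and their mean lay at 5.70 to 6.27, 5.69 to 6.35, 5.78 to 6.28 and 5.95 to 6.57. Most of the 19 were lower than in untreated islets, with 1, 3 and 2 higher in the Nr4a1, Nr4a3 and GFP arrays. Their median differences were -0.20, -0.16 (-0.17 without Nr4a3 replicate 2) and -0.11. The median difference of 7 beta cell markers from untreated was -0.38 in the Nr4a1 arrays, where 3 of the 7 fell against untreated and 3 against GFP. The part of these cell types in the Irf7 and Isg15 differences was not tested.

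The genes varied together from array to array in 2 sets. Deviations of each gene from its group mean were correlated over the 20 arrays for all 36 pairs, with p from 100000 permutations within groups. By Pearson's r, 6 pairs passed after Benjamini-Hochberg adjustment, all positive, and 6 passed by Spearman's rho. Without Nr4a3 replicate 2, a choice made after seeing the data, 8 passed by each measure. The pairs were not all the same. Mx1 with Mx2 passed by r over all arrays (permutation, adjusted 0.0194) but not without that array (r = 0.565, adjusted 0.119). Without that array, Stat2 with Psmb9 passed by r only and Mx1 with Irf7 by rho only. Every pair shares its arrays, so the RNA of 1 sample enters both genes. The share of all gene pairs that pass the same test was not computed, so these counts have no background beside them. Genes on none of the pathway lists reached similar r, such as Anp32b with Psmb9 (0.923 without Nr4a3 replicate 2, 0.400 with all arrays).

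Psmb8 and Psmb9 followed each other most closely, with r = 0.957 and rho = 0.929 (permutation p = 1e-05, the smallest they can give, adjusted 0.00036). Without the 2 arrays farthest from the median r was 0.913, and without Nr4a3 replicate 2 it was 0.929. Irf7 and Isg15 had r = 0.829 and rho = 0.842 (permutation p = 0.00131 and 0.00049, adjusted 0.0118 and 0.00882), r = 0.726 without the 2 farthest arrays and 0.837 without Nr4a3 replicate 2. Both genes are interferon-induced, and Nr4a1 replicates 1, 3 and 5 were the 3 highest arrays for Isg15 and among the 4 highest for Irf7.

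**Figure D3:**
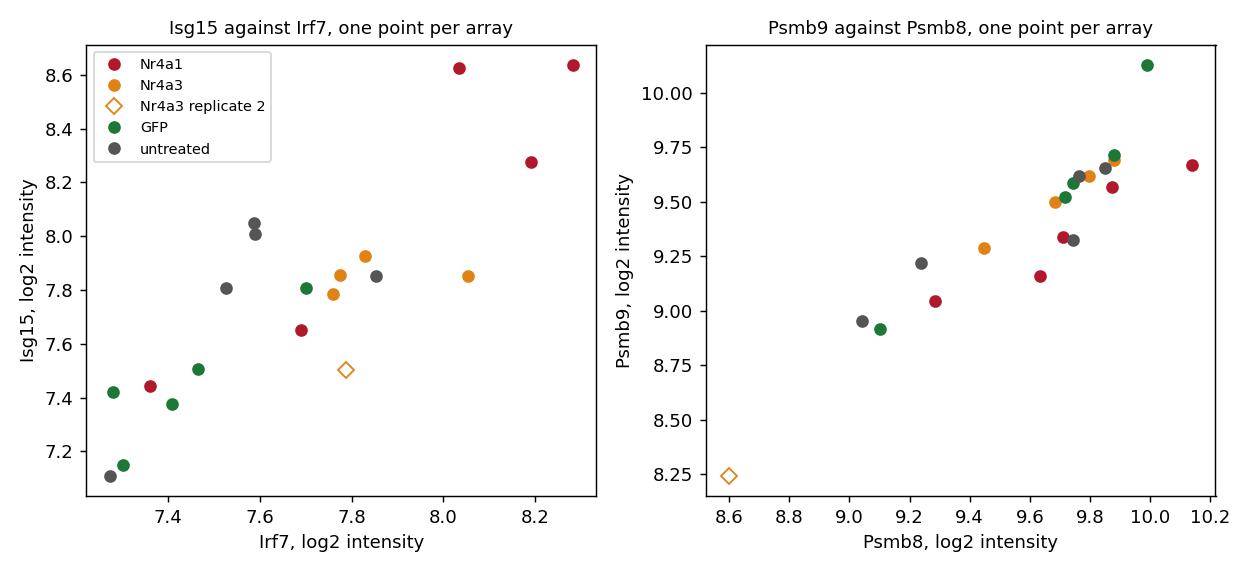
Log2 intensity of Isg15 against Irf7 (left) and of Psmb9 against Psmb8 (right), 1 point per array, coloured by group with Nr4a3 replicate 2 as an open diamond. Within groups the deviations correlated at r = 0.829 for Irf7 and Isg15 and 0.957 for Psmb8 and Psmb9.

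Mx1, Mx2, Irf7 and Isg15 formed 1 set, with r of 0.127 to 0.829 over their 6 pairs, and 0.549 to 0.837 without Nr4a3 replicate 2. Irf1, Stat2, Psmb8 and Psmb9 formed the other, with 0.200 to 0.957, and 0.482 to 0.929 without it. Between the sets r ran from -0.571 to 0.333 over 16 pairs, and from -0.281 to 0.260 without that array. Oas1a had r of -0.417 to 0.571 with the other 8 genes. The sets were drawn after the pairs were seen, so they are a description. Stat2 correlated with Psmb8 at r = 0.864 (0.763 without Nr4a3 replicate 2) and with Psmb9 at 0.830 (0.665). Irf1 correlated with Psmb8 at 0.510 and Psmb9 at 0.513 over 20 arrays, and at 0.812 and 0.888 over the 19, where both passed (permutation, adjusted 0.00054 and 0.00072).

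**Figure D4:**
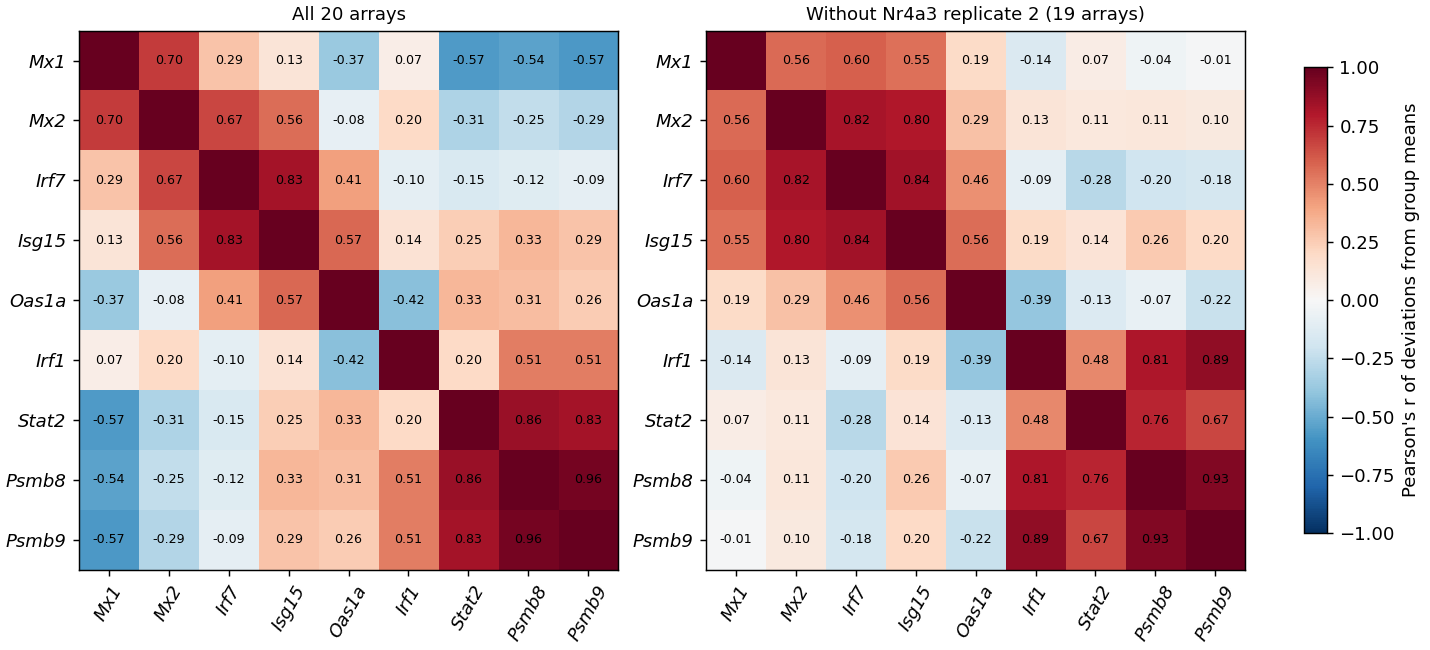
Pearson's r of deviations from group means for all pairs of the 9 genes, with all 20 arrays (left) and without Nr4a3 replicate 2 (right). Positive values gather in the upper left square (Mx1, Mx2, Irf7, Isg15) and the lower right square (Irf1, Stat2, Psmb8, Psmb9).

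Outside the 9, the nearest genes to their mean pattern over 20 arrays were Emc3, a subunit of the membrane protein complex of the endoplasmic reticulum, with r = 0.895, Ruvbl2, an ATPase of chromatin complexes, with 0.809, and Saal1 with 0.807. They were followed by Acot7 (0.794), Nup93 (0.766) and Strap (0.761) among 14208 other genes. Without Nr4a3 replicate 2 the order began with Emc3 (0.906), Mtfr1l (0.868, 0.536 with all arrays), Saal1 (0.852) and Tmem127 (0.836, 0.677 with all arrays). In that ranking Ruvbl2 was at place 5, Acot7 at 10, Nup93 at 16 and Strap at 18.

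The gene closest to each of the 9 in deviations from group means was also taken, over the 19 arrays without Nr4a3 replicate 2 and by a choice made after seeing the data. For Psmb8 it was Psmb10, the third immunoproteasome subunit (r = 0.940, 0.959 with all 20 arrays), and for Psmb9 it was Psme2, a proteasome activator subunit (0.948, 0.893 with all). With all 20 arrays Psmb9 was closer to Psmb8, at 0.957, than to Psme2. For Irf1 it was Tap1, the peptide transporter of MHC class I loading (0.888, 0.879 with all), and for Isg15 it was Irf7 (0.837, 0.829 with all). Over all 20 arrays Isg15 was closer to Emc3, at 0.840, than to Irf7. The closest genes to the other 5 were on none of the pathway lists, and absence from these lists does not place a gene outside the pathway. These closest genes were Ifgga2l1 for Irf7 (0.862, 0.786 with all), Emc3 for Mx2 (0.841, 0.602 with all), Foxr1 for Mx1 (0.746, 0.890 with all), Lmod3 for Oas1a (0.815, 0.0581 with all) and Nol8 for Stat2 (0.914, -0.0445 with all). Over all 20 arrays Irf7 was closer to Isg15, at 0.829, than to Ifgga2l1, and Mx2 was closer to Irf7, at 0.672, than to Emc3.

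Other genes of the pathway were read from lists. Of 43 other interferon-stimulated genes measured, 2 rose and 0 fell in the Nr4a1 arrays against untreated, where 7.94% of all genes were called, and none passed in the Nr4a3 or GFP arrays. The 2 were Ifi44l, a gene induced by interferon, and Parp12, an interferon-induced mono-ADP-ribosyltransferase. The median log2 difference of all 43 genes from untreated was 0.05, -0.03 and 0.02 in the Nr4a1, Nr4a3 and GFP arrays. The Nr4a3 median was 0.02 without replicate 2. Ifi44l measured 8.27, 8.30, 8.09, 8.18 and 8.71 in the Nr4a1 arrays, 7.68, 8.36, 7.96, 7.78 and 8.02 in the Nr4a3 arrays, 8.05, 7.78, 7.62, 7.36 and 7.46 in the GFP arrays, and 7.41, 7.64, 7.59, 7.37 and 7.79 in the untreated arrays. All 5 Nr4a1 arrays lay above the untreated arrays, where 11.2% of all genes did not overlap. The difference was 0.75 ± 0.14 against untreated (limma adjusted p = 0.00214) and 0.66 ± 0.14 against GFP (limma adjusted p = 0.00537). Parp12 rose by 0.37 ± 0.09 against untreated (limma adjusted p = 0.0133) and by 0.34 ± 0.09 against GFP (0.0219), where the call ended without Nr4a1 replicate 1 (0.0699) or GFP replicate 4 (0.0597). Against GFP, where 8.71% of all genes were called, 3 of the 43 rose in the Nr4a1 arrays, the third being Rtp4, a receptor transporter protein induced by interferon, by 0.65 ± 0.17 (limma adjusted p = 0.0205). Rtp4 was chosen after its values were seen, and its call ended without Nr4a1 replicate 1 or GFP replicate 3, 4 or 5 (0.0555 to 0.0708). Without Nr4a3 replicate 2, 4 of the 43 rose in the Nr4a1 arrays against untreated (Ifi44l, Ifi35, Parp12 and Dtx3l) and Isg20 fell, where 19.1% of all genes were called. Lgals3bp rose in the Nr4a3 arrays, where 3.78% were called. In that fit Ifngr2, Mavs, Irf3 and Stat3 also rose in the Nr4a1 arrays.

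Usp18, which removes ISG15 from proteins and inhibits the type I receptor, was the called gene among 18 JAK-STAT genes, other interferon regulatory factors and inhibitors. It measured 8.52, 8.12, 8.36, 8.05 and 8.10 in the Nr4a1 arrays, 8.30, 9.13, 7.93, 7.78 and 8.18 in the Nr4a3 arrays, 7.60, 7.21, 7.54, 7.39 and 7.15 in the GFP arrays, and 7.62, 7.75, 7.40, 7.80 and 7.48 in the untreated arrays. Against untreated it rose in the Nr4a1 arrays by 0.62 ± 0.18 (limma adjusted p = 0.0408), as 1 of the 18, where 7.94% of all genes were called. The call ended without any 1 of the 5 Nr4a1 arrays or without untreated replicate 1, 3 or 5 (0.0528 to 0.124) and after a repeated quantile normalization (0.0722). It held without Nr4a3 replicate 2 (limma adjusted p = 0.00121), in a fit that called 19.1% of all genes. The Nr4a3 difference from untreated was 0.65 ± 0.18 (limma adjusted p = 0.0875), 0.43 without replicate 2 and 0.77 without replicate 4, where it passed (0.0296). Against GFP Usp18 rose by 0.86 ± 0.18 in Nr4a1 arrays (limma adjusted p = 0.00467) and by 0.89 ± 0.18 in Nr4a3 arrays (0.0137), where 8.71% and 1.93% of all genes were called. Without Nr4a3 replicate 2 the Nr4a3 difference was 0.67 (limma adjusted p = 0.00495), where 3.71% were called. The Nr4a3 call ended when only the 10 arrays compared were fitted (limma adjusted p = 0.115) and without GFP replicate 5 (0.0501).

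Ifngr1, a chain of the interferon gamma receptor, was the called gene among 9 measured ligands and receptors. It measured 10.89, 10.60, 10.44, 10.47 and 10.52 in the Nr4a1 arrays, 10.28, 8.24, 10.09, 9.68 and 9.98 in the Nr4a3 arrays, 9.30, 9.39, 9.26, 9.31 and 9.20 in the GFP arrays, and 9.45, 9.26, 9.19, 9.07 and 9.40 in the untreated arrays. In the Nr4a1 arrays it rose by 1.31 ± 0.25 against untreated (limma adjusted p = 0.00214), as 1 of the 9, where 7.94% of all genes were called. All 5 of these arrays lay above untreated, where 11.2% of all genes did not overlap. The Nr4a3 difference was 0.38 ± 0.25 (0.529, limma), and without replicate 2, the low array, it was 0.73 with an adjusted p of 0.000754. In the GFP arrays it differed by 0.02 ± 0.25.

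Nucleic acid sensors and adaptors (14 measured), 20 MHC class I pathway genes, 8 MHC class II genes, 13 subunits of the constitutive proteasome core and 15 NF-kB targets had 0 genes called against untreated in each virus group (limma). Their medians in the Nr4a1, Nr4a3 and GFP arrays were -0.03, 0.01 and 0.01 for sensors, 0.02, 0.02 and 0.08 for class I, and -0.15, -0.35 and -0.23 for class II. For the proteasome core they were 0.17, -0.05 and -0.01, and for NF-kB targets 0.18, 0.22 and 0.36. Without Nr4a3 replicate 2 the Nr4a3 medians were 0.03 for sensors, 0.09 for class I and -0.36 for class II. For the proteasome core that median was then 0.08, and for NF-kB targets 0.21. Of the NF-kB targets, Cxcl1, a neutrophil chemokine, differed by 0.81 ± 0.90 over the mean of 3 viruses and Ccl20, a lymphocyte chemokine, by 0.67 ± 0.37, without passing. Without Nr4a3 replicate 2 RT1-CE10, a class I gene, passed in the Nr4a1 arrays (0.51, limma adjusted p = 0.0166) and the Nr4a3 arrays (0.55, 0.0476), and 5 of the 13 core proteasome subunits rose in the Nr4a1 arrays (Psma5, Psmb2, Psmb4, Psmb5 and Psmb7), where 11.8% of all genes rose.

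**Figure D5:**
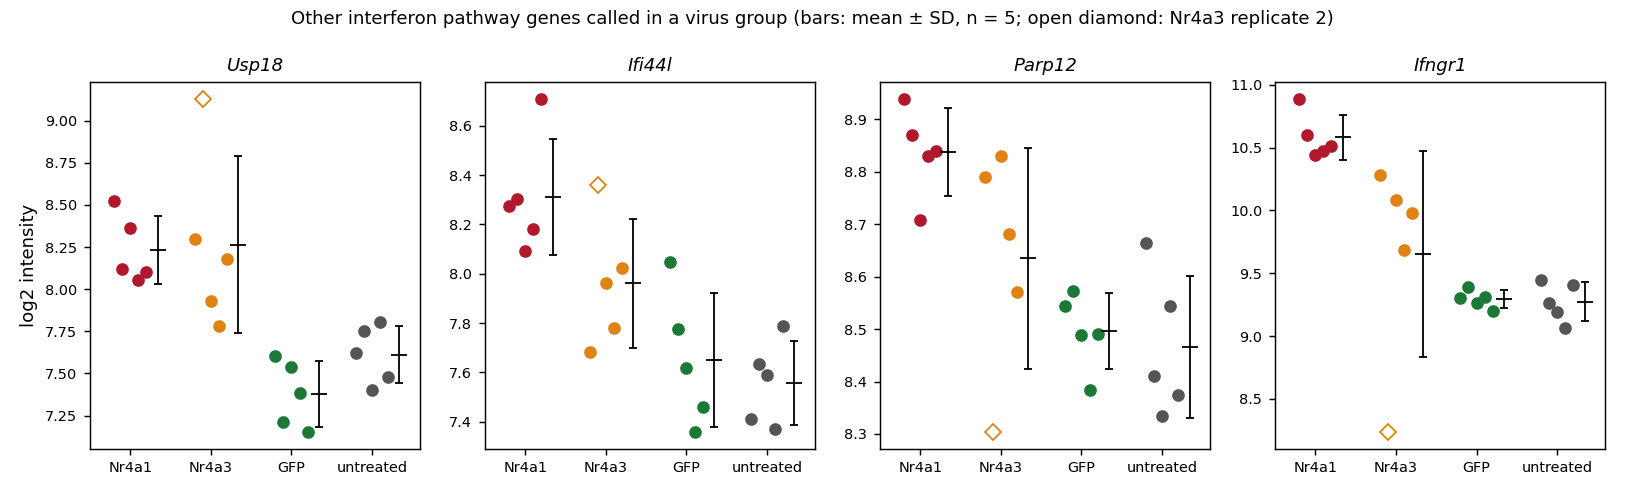
Log2 intensity of Usp18, Ifi44l, Parp12 and Ifngr1, the pathway genes called in a virus group against untreated islets, 1 point per array with mean ± SD (n = 5) and Nr4a3 replicate 2 as an open diamond. The genes were chosen by that call. The 5 Nr4a1 arrays lie above the 5 untreated arrays in each panel, where 11.2% of all genes did not overlap. The GFP arrays overlap the untreated ones, where 0.605% of all genes did not.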

How the data were processed

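Total RNA of 20 samples was read on 1 Affymetrix rat array each. Per the submitters' processing notes, the authors made the deposited probe set intensity values with RMA, a background correction, quantile normalization and probe summary, with the version unknown here. The values are linear, although log2 had been assumed, and were log2-transformed with no further scaling. Of 31099 probe sets, 57 are controls, 9780 have no symbol, 436 have several and 20826 have 1. The brightest probe set stood for each of 14217 genes, and all 9 members matched through gene ID.

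In limma 3.58.1 (R 4.3.3), 1 mean was fitted for each group over the 20 arrays (16 residual and 3.64 prior degrees of freedom, two-sided), after a test on simulated data. P-values were adjusted by Benjamini-Hochberg over all genes, with a call under 0.05. The array number limits the precision. Differences are the first group named minus the second, with standard errors and 95% intervals. The named genes were the 9 members, of each other list the called genes (up to 4) or else the 2 with the largest mean difference over 3 viruses, and the 6 genes most like the members' mean. The members and lists were chosen with earlier results of these data known. The alternatives were a block for the replicate number, only the arrays compared, trended variance, array weights, repeated quantile normalization, median centring, a filter at the 25th percentile, all probe sets, probe set means, and leaving out each array. Scan dates were not used here.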

Additional observations from a re-analysis of the deposited data

Results flagged for a closer look

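Within the 36 groups of 5 arrays (9 genes in 4 groups), 4 held an array far from the other 4, where chance flags about 1 in 20. Irf7 in Nr4a3 replicate 5 measured 8.05, with the next at 7.83. Stat2 in Nr4a3 replicate 2 measured 7.69, with the next at 8.22, and Psmb9 in the same array measured 8.24, with the next at 9.29. Isg15 in untreated replicate 3 measured 7.11, with the next at 7.81.

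The Irf7 difference from untreated islets was larger in Nr4a1 than in GFP arrays by 0.48 on the log2 scale, which is the Nr4a1 against GFP comparison itself (limma adjusted p = 0.0434).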

How the results depend on the processing

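The 9 genes had 0 calls against untreated islets under all 29 alternatives for the GFP, Nr4a3 and 3-virus comparisons, and under 28 of 29 for Nr4a1 (0 to 1 with single arrays left out, the 1 being Irf7 without Nr4a1 replicate 4). Against GFP the Nr4a3 arrays also kept 0. The Nr4a1 arrays had 0 with only the arrays compared and 4 with array weights, where 3576 of 14217 genes were called. With array weights Irf7, Isg15 and Oas1a rose and Irf1 fell (log2 difference -0.27, limma adjusted p = 0.0473). The count was 2 with repeated quantile normalization and 2 with genes above the 25th percentile. It was 0 with all probe sets and 0 to 2 with single arrays left out. Of 1509 member comparisons called in neither fit, 58 changed sign. Counts over all genes moved more: for Nr4a1 against untreated, 1129 became 1800 with only the arrays compared and 2398 with array weights, and 714 to 2710 with single arrays left out. For Nr4a3 against untreated, 213 became 27, 393, and 93 to 538 in the same order. The mean of 3 viruses had 169, 467 with array weights and 94 to 799 with single arrays left out. Against GFP, Nr4a1 had 1239, then 2853, 3576 and 742 to 2714, and Nr4a3 had 274, then 122, 1027 and 127 to 527. GFP against untreated had 0 throughout. The cause of these moves was not tested beyond the arrays left out. The replicate block gave 994 genes for Nr4a1 and 188 for Nr4a3 against untreated and changed no member call. Same-numbered arrays correlated at -0.297 to 0.495 in their deviations and 7 of 30 were closest to their own number, so the numbers are not shown to pair samples. Pair correlations that passed numbered 6 over all arrays and 8 without Nr4a3 replicate 2, and the pairs were not all the same. The dim probe sets of Mx1, Mx2 and Oas1a and the number of arrays limit the precision.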
